A study of Saccharomyces cerevisiae with 9 samples.

Results

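The RNAseq data compared baker's yeast that reached the same temperature, 50 °C, by different routes, a slow heat ramp and a sudden heat shock. Of the 9 libraries, the 3 of the heat ramp and the 3 of the heat shock were set directly against each other. The 3 of the unheated control gave the level from which each treatment moved. According to the supplement, each culture gave a sample to every group. The strain was BY4742, a haploid MATα laboratory strain labelled as wild type, which carries deletions in the marker genes HIS3, LEU2, LYS2 and URA3. According to the sample labels, cultures were grown for 48 h at 25 °C in YPD until they had entered stationary phase. Both heated groups started at 25 °C and were brought to 50 °C, the heat ramp at a rate of 0.5 °C per min, which takes 50 min, and the heat shock at 50 °C per min, which takes 0.5 min. Both were held at 50 °C for 30 min and returned quickly to 25 °C before RNA was extracted, and control cells were collected before any heating. The ramp therefore lasted 80 min in all and the shock 30.5 min, so that heating rate and total time under heat cannot be told apart in any result given here. The study describes another hold and starting temperature for the heat shock of its culturability tests, and the times used here are those of the RNAseq labels.

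When proteins unfold in the heat, yeast relies on a pair of transcription programmes. The heat shock factor Hsf1 binds heat shock elements and drives the chaperone genes, whose products hold, refold or disaggregate damaged proteins. The zinc finger proteins Msn2 and Msn4 bind the stress response element (STRE) and drive a broad environmental stress response that includes trehalose and glycogen metabolism and antioxidant enzymes. The opposite arm of this response is the lowering of ribosomal protein genes, which depend largely on Rap1 and Ifh1, and of the ribosome assembly genes, many of which carry the PAC and RRPE elements in their promoters.

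Promoters are shown for the genes that were farthest apart between the treatments (HSP30 and RGI1 higher after the heat ramp, AAH1 and NCE103 lower), for those farthest to opposite sides of the control (CIP1 and SPG1 up in the ramp and down in the shock, NCE103 and DSE2 the reverse), and for one chaperone gene and one ribosome assembly gene, HSP104 and HAS1, chosen after their values were seen because they carry the elements described further on. Each sequence covers the 300 bases that lie from 400 to 101 bases upstream of the start of the reading frame, 5′ to 3′ on the strand of the gene, from the RefSeq genome of assembly R64. Capitals mark the STRE (CCCCT), the PAC element (GATGAG), the RRPE (AAAATTTT) and the heat shock element, read here as 3 alternating GAA and TTC units that each lie 2 bases apart, all searched on both strands, so that AGGGG and CTCATC are the STRE and PAC of the other strand. The genes higher after the heat ramp were HSP30 (chrIII:157208-157507, minus strand), RGI1 (chrV:291666-291965, plus strand), HSP104 (chrXII:88223-88522, plus strand), CIP1 (chrXVI:527147-527446, plus strand) and SPG1 (chrVII:962918-963217, minus strand).
HSP30: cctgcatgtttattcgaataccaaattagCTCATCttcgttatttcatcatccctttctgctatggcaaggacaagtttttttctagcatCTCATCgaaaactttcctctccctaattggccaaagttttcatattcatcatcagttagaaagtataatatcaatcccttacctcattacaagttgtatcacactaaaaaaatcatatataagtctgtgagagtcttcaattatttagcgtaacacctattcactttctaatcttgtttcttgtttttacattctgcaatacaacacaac
RGI1: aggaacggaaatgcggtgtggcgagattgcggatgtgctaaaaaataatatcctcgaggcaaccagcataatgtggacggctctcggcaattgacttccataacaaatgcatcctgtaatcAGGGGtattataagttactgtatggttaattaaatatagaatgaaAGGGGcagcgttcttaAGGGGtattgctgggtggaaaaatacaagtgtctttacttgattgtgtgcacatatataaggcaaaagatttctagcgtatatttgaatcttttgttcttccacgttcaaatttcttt
HSP104: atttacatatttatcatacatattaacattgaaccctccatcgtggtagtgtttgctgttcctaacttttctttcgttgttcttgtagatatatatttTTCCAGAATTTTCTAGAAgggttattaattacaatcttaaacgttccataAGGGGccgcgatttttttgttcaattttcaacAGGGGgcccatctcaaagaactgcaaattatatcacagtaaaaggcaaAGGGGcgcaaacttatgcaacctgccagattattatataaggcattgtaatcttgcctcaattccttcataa
CIP1: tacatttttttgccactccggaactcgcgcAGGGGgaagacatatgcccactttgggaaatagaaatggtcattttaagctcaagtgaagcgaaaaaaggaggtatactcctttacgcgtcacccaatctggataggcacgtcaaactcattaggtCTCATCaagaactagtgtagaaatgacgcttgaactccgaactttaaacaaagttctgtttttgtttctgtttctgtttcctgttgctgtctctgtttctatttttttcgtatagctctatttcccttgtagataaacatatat
SPG1: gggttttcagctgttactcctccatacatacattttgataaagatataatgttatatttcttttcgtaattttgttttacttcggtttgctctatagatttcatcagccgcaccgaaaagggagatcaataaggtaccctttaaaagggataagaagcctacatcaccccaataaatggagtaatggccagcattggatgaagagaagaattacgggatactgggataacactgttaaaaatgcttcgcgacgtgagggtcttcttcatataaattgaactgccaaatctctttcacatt

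The genes lower after the heat ramp were AAH1 (chrXIV:359196-359495, plus strand), NCE103 (chrXIV:559414-559713, plus strand), DSE2 (chrVIII:385110-385409, plus strand) and HAS1 (chrXIII:851692-851991, minus strand).
AAH1: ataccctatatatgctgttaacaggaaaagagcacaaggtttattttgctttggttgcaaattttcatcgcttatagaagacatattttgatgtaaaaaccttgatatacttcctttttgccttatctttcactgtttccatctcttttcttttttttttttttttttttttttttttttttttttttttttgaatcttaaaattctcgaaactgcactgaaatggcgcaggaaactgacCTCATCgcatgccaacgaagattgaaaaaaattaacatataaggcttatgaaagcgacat
NCE103: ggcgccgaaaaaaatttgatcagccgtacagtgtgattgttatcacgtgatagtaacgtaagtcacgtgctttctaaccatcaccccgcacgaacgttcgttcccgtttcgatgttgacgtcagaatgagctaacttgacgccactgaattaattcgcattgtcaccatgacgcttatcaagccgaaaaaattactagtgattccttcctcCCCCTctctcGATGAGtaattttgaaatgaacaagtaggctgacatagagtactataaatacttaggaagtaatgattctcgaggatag
DSE2: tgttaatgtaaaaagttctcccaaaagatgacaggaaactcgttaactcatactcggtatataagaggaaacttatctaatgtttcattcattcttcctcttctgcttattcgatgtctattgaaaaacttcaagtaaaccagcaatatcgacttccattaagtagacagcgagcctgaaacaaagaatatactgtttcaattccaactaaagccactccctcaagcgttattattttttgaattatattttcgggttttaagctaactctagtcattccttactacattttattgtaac
HAS1: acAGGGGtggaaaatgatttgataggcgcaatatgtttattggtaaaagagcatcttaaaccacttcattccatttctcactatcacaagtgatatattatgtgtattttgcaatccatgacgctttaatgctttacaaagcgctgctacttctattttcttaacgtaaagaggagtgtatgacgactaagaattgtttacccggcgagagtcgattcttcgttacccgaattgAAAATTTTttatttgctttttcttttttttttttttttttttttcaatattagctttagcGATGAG

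Of these windows, RGI1 and HSP104 hold 3 STREs each, and HSP104 also holds the only heat shock elements shown, which overlap in a single run of capitals. HAS1 holds 1 STRE, 1 RRPE and 1 PAC element. NCE103 and CIP1 hold 1 STRE and 1 PAC element each, AAH1 holds 1 PAC element, and HSP30 holds 2. No capitals stand in SPG1 or DSE2, which says only that these letters are not in the window.

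Values throughout are normalized counts, in which the reads of a feature have been divided by a size factor that is particular to each library. Between 22579312 and 24415433 reads were counted in the heat ramp libraries, between 23543523 and 24341005 in the heat shock libraries and between 26859792 and 27233289 in the control libraries. The 10 most abundant features took 20.1% to 20.8% of the reads after the heat ramp, 7.17% to 10.5% after the heat shock and 6.14% to 6.47% in the control. The size factors differed too, at 0.610 to 0.714 in the heat ramp libraries, 1.11 to 1.13 in the heat shock libraries and 1.40 to 1.46 in the control libraries. LEU2, LYS2 and URA3 had 0 reads in all 9 libraries, which allows up to 3 reads in each and covers counting error only, while HIS3, of which part is deleted in this lineage, had reads in all. The α-cell genes MF(ALPHA)1, MF(ALPHA)2, STE3 and SAG1 together held 0.0704% to 0.104% of the reads after the heat ramp, 0.134% to 0.178% after the heat shock and 0.117% to 0.132% in the control. All of the 6 a-cell genes examined also had reads in every library, summing to 0.00330% to 0.00477%, 0.0293% to 0.0327% and 0.0161% to 0.0221% in the same groups, and their part in any result was not tested.

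Set directly against the heat shock with limma, on log2(normalized count + 1), the heat ramp stood apart in 4929 of the 6847 features tested (72.0%) at the 0.05 level after Benjamini-Hochberg adjustment. These calls divided almost evenly, with 2459 features (35.9% of those tested) higher in the ramp and 2470 (36.1%) lower. A difference of at least 1 on the log2 scale was reached by 1470 of the higher and 1307 of the lower features, one of at least 3 by 154 and 83, and one of at least 4 by 48 and 17. The 3 heat ramp values and the 3 heat shock values did not overlap in 4934 features, 4688 of them also called. The quartiles of all features lay at −0.76 and 0.86, with a median standard error of 0.15. The even division depends on the size factors. When reads were divided by the library total in their place, the median of all features moved by −0.74 on the log2 scale, and 1184 features were higher and 4096 lower, so that 22.4% of the called features were higher instead of 49.9%. All 2470 lower features stayed lower in that scaling, whereas 138 of the higher ones turned to lower. In bulk RNA, fewer intact cells and less RNA per cell cannot be told apart. Normalized counts are relative to the size factor of each library and give no amount of RNA per cell. Only the values scaled to the library total are shares of the reads.

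Relative to the control, the heat ramp moved more features than the heat shock, 5375 (78.5%) against 3945 (57.6%). Among the 2459 features higher after the ramp, 872 were above the control in the ramp with no call in the shock, 587 were above it in both treatments, 450 lay on opposite sides, and 332 were below it in the shock with no call in the ramp. The 2470 lower features were mostly ones the ramp had lowered. Of these, 1135 were below the control in the ramp with no call in the shock, 428 were below it in both, 448 lay on opposite sides and 305 were above it in the shock with no call in the ramp. These groups share the control libraries, and an uncalled feature is not shown to be unchanged. The groups, and the sides of the control given below for single genes, rest on the size factors of the deposited values.

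**Figure D1:**
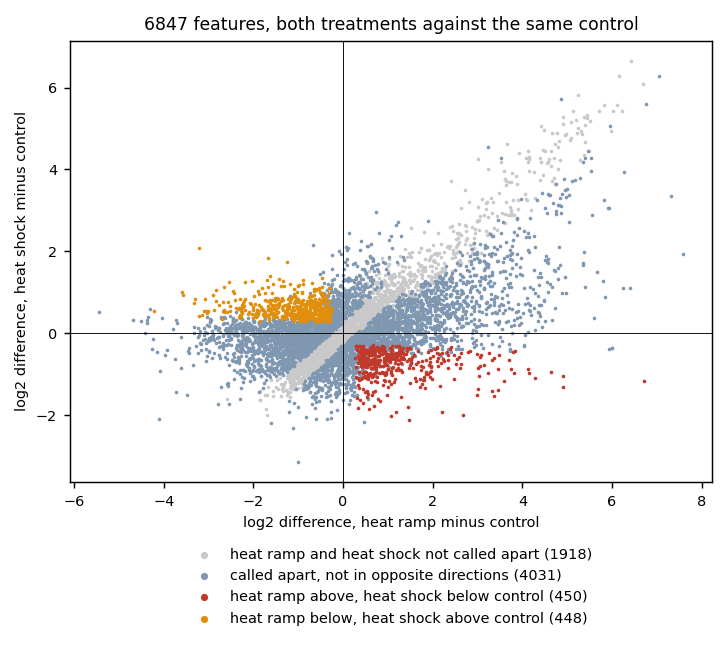
Each point is 1 of the 6847 features, with its log2 difference from the control after the heat ramp on the x axis and after the heat shock on the y axis, both against the same 3 control libraries. Red and orange points mark the 450 and 448 features on opposite sides of the control, which lie in the lower right and upper left.

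The 10 genes farthest above the shock in the ramp were all called above the control in the ramp, and none was called above it in the shock. HSP30, a plasma membrane heat shock protein that restrains the proton pump Pma1, had 934470, 798026 and 1190730 normalized counts in the heat ramp libraries, against 6062, 2691 and 4086 in the heat shock libraries and 13927, 8119.5 and 6762 in the control libraries. Each ramp value is more than 100 times every shock value, and the shock values lie under those of the control. The log2 difference between ramp and shock was 7.89 (standard error 0.30, limma adjusted p = 8.15e-11), the widest of any protein-coding gene. HSP26, the small heat shock protein that sequesters unfolded proteins, had 527029, 582114 and 582088 normalized counts in the heat ramp libraries, against 6979.8, 7958 and 7778 in the heat shock libraries and 17867, 20453 and 18417 in the control libraries. It too stood on opposite sides of the control, with log2 differences of 4.90 in the ramp and −1.32 in the shock.

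TSL1, a regulatory subunit of the trehalose synthase complex, had 450665, 271216 and 442882 normalized counts in the heat ramp libraries, against 5451, 4088 and 4851 in the heat shock libraries and 9931, 5068 and 4735 in the control libraries. Its ramp values stood far above the other 6, while the shock and the control overlapped. RGI1, a gene of energy metabolism first named for its induction during respiratory growth, had 51700, 47187 and 47125 normalized counts in the heat ramp libraries, against 662, 656 and 465 in the heat shock libraries and 1074, 692 and 578 in the control libraries. This amounts to a log2 difference of 6.37 (standard error 0.20) between ramp and shock, and the shock again overlapped with the control. Of the other 6 genes, the uncharacterized YER053C-A stood at 6.35 on the log2 scale, ramp minus shock, RTC3 at 5.95 and OPI10 at 5.58. The phosphoglucomutase gene PGM2 was at 5.38, the aldose reductase gene GRE3 at 5.22 and the ribosome-associated TMA10 at 5.11. The rule that picked these genes asked for ramp and shock values without overlap, which 72.1% of all features tested had.

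The 10 genes at the other end were all called below the control in the ramp, and none was called below it in the shock. AAH1, an adenine deaminase that is known to fall when yeast stops growing, had 159, 156 and 437 normalized counts in the heat ramp libraries, against 10754, 15775 and 15934 in the heat shock libraries and 8599, 9591 and 11052 in the control libraries. The log2 difference was −5.97 (standard error 0.31, adjusted p = 8.31e-10), and the third ramp library stood above the other two. NCE103, the carbonic anhydrase that turns CO2 into bicarbonate for biosynthesis, had 1281, 1633 and 1216 normalized counts in the heat ramp libraries, against 64021, 64672 and 37049 in the heat shock libraries and 16696, 12298 and 10008 in the control libraries. All 3 shock values exceeded all control values and all ramp values lay below them.

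Of the remaining genes of this end, MEP2, an ammonium permease, had 1067, 1159 and 1406 normalized counts after the heat ramp, against 35584, 40269 and 40903 after the heat shock, and GAP1, the general amino acid permease, had 1209, 1460.3 and 1611 normalized counts after the heat ramp, against 37444, 43819 and 38135 after the heat shock. In both the ramp values were low and close together. PHO89, a sodium-coupled phosphate transporter, differed by −4.91, the iron permease gene FTR1 by −4.70 and the S-methylmethionine permease gene MMP1 by −4.58, all on the log2 scale, ramp minus shock. The cytosolic aldehyde dehydrogenase gene ALD6 (−4.76), the ribose phosphate isomerase gene RKI1 (−4.75) and PCK1 (−4.63), which encodes the first committed enzyme of gluconeogenesis, completed the 10 lowest.

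**Figure D2:**
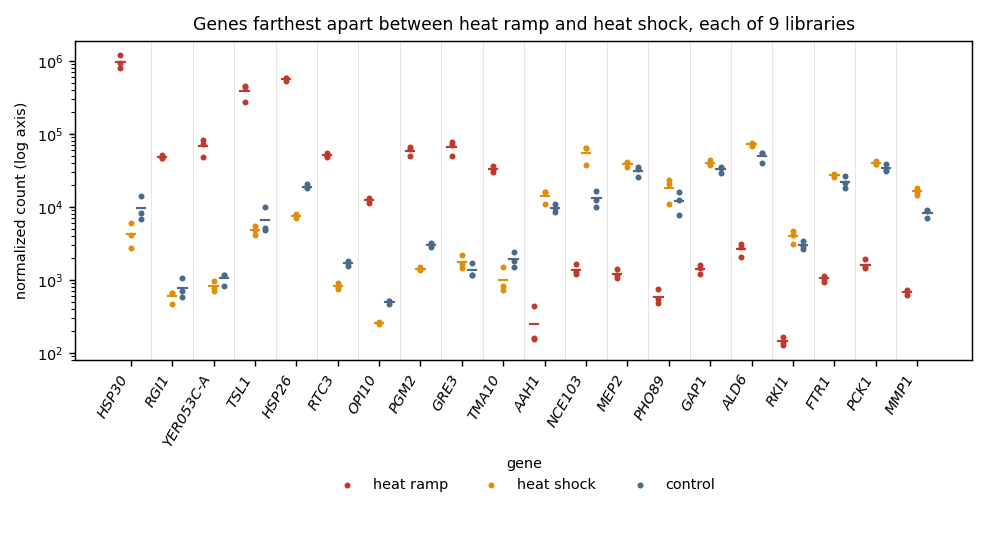
Normalized counts (log axis) of the 10 genes highest and the 10 lowest after the heat ramp relative to the heat shock, with 1 point for each of the 3 libraries of a group and a bar at the mean. For the first 10 genes the heat ramp points stand apart above both other groups, and for the last 10 apart below them. Heat shock and control lie closer to each other than the heat ramp does to either. The genes were picked for heat ramp and heat shock values that do not overlap.

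To describe functions, 43 lists holding 838 different genes were used, and all of the genes passed the filter on low counts. Counts of members higher and lower refer to the heat ramp relative to the heat shock and are to be read against the 35.9% and 36.1% of all features, and list medians against the median of 0.04 over all features.

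**Figure D3:**
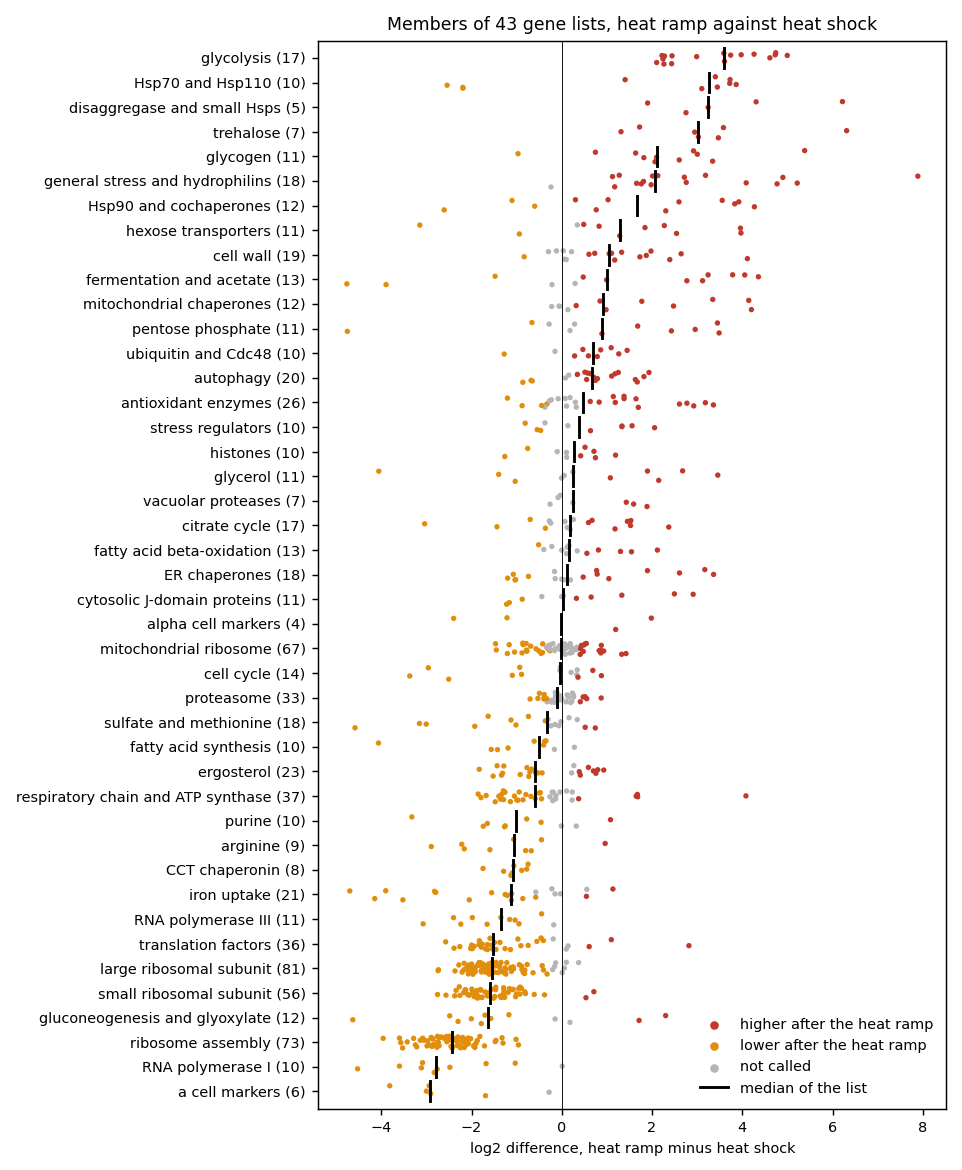
Log2 difference between heat ramp and heat shock (x axis) for every member of 43 gene lists, with the number of members in brackets, lists ordered by their median (black bar). Members called higher after the heat ramp are red, lower orange and uncalled grey, and the medians run from 3.59 for glycolysis to −2.92 for the a-cell genes.

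Chaperone genes divided by family. Of the 10 Hsp70 and Hsp110 genes, 7 were higher and 3 lower (median 3.25 on the log2 scale), and all 5 genes of the disaggregase and small heat shock protein list were higher (median 3.24). Among 12 genes of Hsp90 and its cochaperones, 9 were higher and 3 lower (median 1.66, or 0.92 with 6 higher and 4 lower by total count scaling). In contrast, all 8 subunits of the CCT chaperonin, which folds actin and tubulin, were lower (median −1.08).

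SSA4, the classical stress-induced cytosolic Hsp70, had 703303, 837006 and 635212 normalized counts in the heat ramp libraries, against 84716, 32617 and 59079.6 in the heat shock libraries and 56247, 39166 and 44619.9 in the control libraries. The ramp values are far above all others, and the shock values scatter around those of the control. HSP104, the disaggregase that pulls proteins out of aggregates, had 714102, 863050 and 691453 normalized counts in the heat ramp libraries, against 58579, 22957 and 40982 in the heat shock libraries and 49075, 46108 and 43486 in the control libraries, with a log2 difference between ramp and shock of 4.31 (standard error 0.29). HSP82, the inducible Hsp90, had 670785, 876465 and 762375 normalized counts in the heat ramp libraries, against 95421, 26046 and 62315 in the heat shock libraries and 39581, 37721 and 35457 in the control libraries. Its shock libraries ranged widely and overlapped with the control, whereas the ramp libraries did not come near either.

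This spread in the shock libraries was common to the family. Of the 42 genes called higher after the ramp in the 6 other chaperone lists, 29 had their lowest heat shock value in replicate 2 and 29 their highest in replicate 1. Without heat shock replicate 2 the medians of the Hsp70, Hsp90 and disaggregase lists were 3.01, 1.54 and 2.82. The whole of the 7 chaperone lists took 19.3% to 22.4% of the reads after the heat ramp, 3.06% to 5.93% after the heat shock and 3.92% to 4.34% in the control. SSA1 and SSA2 share 57.9% and 58.2% of their 50-base windows with other places in the genome, and reads of one may have been counted on the other, whereas SSA4 shares none.

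Several chaperone genes moved to opposite sides of the control. SSE2, an Hsp110 that releases nucleotide from Hsp70, had 60166, 55209 and 58858 normalized counts in the heat ramp libraries, against 4919, 3053 and 4218 in the heat shock libraries and 8279.6, 6927 and 6529.6 in the control libraries. STI1, which hands clients between Hsp70 and Hsp90, was 3.15 above the control in the ramp and −0.77 from it in the shock, and the cyclophilin gene CPR6, another Hsp90 partner, 3.84 and −0.43, on the log2 scale. SSA3 and HSP26 completed the 5 chaperone genes that rose in the ramp and fell in the shock. The ribosome-bound Hsp70 genes were lower after the ramp. SSB1 had 4539, 6337 and 6879.9 normalized counts after the heat ramp, against 30958, 38789.5 and 32494 after the heat shock and SSB2 6561, 8797 and 9528 normalized counts after the heat ramp, against 34761, 40104 and 37539 after the heat shock, and the log2 differences between ramp and shock were −2.54 and −2.19. These copies share 43.2% of their windows and lie in the same direction. SSZ1, which works with them on the ribosome, was lower as well (−2.19). SSB2 and SSZ1 were also below the control in the ramp and above it in the shock, while SSB1 was not called apart from the control in the shock.

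The compartments beyond the cytosol followed more loosely. Mitochondrial chaperone genes were higher in 8 of 12 and lower in none (median 0.91, or 0.17 with 5 higher and 5 lower by total count scaling), led by the chaperonin gene HSP60 with 158840, 122137 and 175326 normalized counts after the heat ramp, against 10307, 5586 and 9490.3 after the heat shock. For HSP78, the mitochondrial disaggregase, the log2 difference between ramp and shock was 4.14. In the endoplasmic reticulum list 8 of 18 were higher and 5 lower (median 0.12, or −0.62 with 4 higher and 10 lower by total count scaling). KAR2, the Hsp70 of that compartment, had 322966, 318662 and 310071 normalized counts after the heat ramp, against 50653, 22036 and 39314 after the heat shock, and HAC1, the transcription factor of the unfolded protein response, 18348, 16956 and 19879 normalized counts after the heat ramp, against 2023, 1419 and 1977 after the heat shock. Neither gene overlapped between the treatments. Because HAC1 is controlled by splicing of its messenger, its count does not show how much active factor was made. Of the J-domain partners of Hsp70, APJ1 (2.91) and SIS1 (2.49) were the most raised on the log2 scale, 5 of 11 were higher and 3 lower, and the list median of 0.03 became −0.71 with total count scaling, where 3 were higher and 7 lower.

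In the proteasome list, 5 of 33 genes were higher and 7 lower (median −0.11), but 28 were lower and none higher by total count scaling (median −0.85). The lower count also turned on single libraries, at 2 without heat shock replicate 2, 3 without heat ramp replicate 3 and 13 without heat ramp replicate 2. With the deposited size factors all members lay between −0.70 for RPT5 and 0.87 for PUP2. In the next list, 8 of the 10 genes for ubiquitin and the Cdc48 segregase were higher and 1 lower (median 0.69, or −0.06 with 3 higher and 3 lower by total count scaling). The polyubiquitin gene UBI4 had 62029, 61409 and 56648 normalized counts in the heat ramp libraries, against 30626, 24344 and 20968 in the heat shock libraries and 30256, 25204 and 25844 in the control libraries. The ramp values exceeded both other groups, which overlapped. Autophagy genes were higher in 15 of 20 and lower in 3 (median 0.67, or −0.07 with 6 higher and 6 lower by total count scaling), with the kinase gene ATG1 at 1838, 2081 and 1622 normalized counts after the heat ramp, against 712, 357 and 437 after the heat shock. With the deposited size factors, ATG1, ATG2, ATG14 and ATG16 lay on opposite sides of the control. Among the 7 vacuolar protease genes, 3 were higher and none lower (median 0.24, or −0.50 with 3 higher and 4 lower by total count scaling), among them PRC1, which encodes carboxypeptidase Y (1.59).

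The general stress list, of hydrophilins and other small proteins raised in many stresses, had 17 of 18 members higher and none lower after the ramp (median 2.07). HSP12, a membrane-protecting hydrophilin, had 404671, 419294 and 521638 normalized counts in the heat ramp libraries, against 16995, 18786 and 13660.1 in the heat shock libraries and 29833, 34666 and 31269.7 in the control libraries. The shock lay under the control in all 3 libraries, and every ramp value stood far above the rest. STF2, a hydrophilin-like factor known for its part in desiccation tolerance, differed from the control by 3.38 in the ramp and −1.52 in the shock. The only uncalled member was GRE1 (−0.24).

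Antioxidant genes were divided. In that list 13 of 26 were higher and 4 lower (median 0.48, or −0.27 with 10 higher and 13 lower by total count scaling). Without heat ramp replicate 1 or heat shock replicate 2, 2 were lower. CTT1, the cytosolic catalase induced by stress, had 17574, 10806 and 16779 normalized counts in the heat ramp libraries, against 1929, 2025 and 1867 in the heat shock libraries and 3611, 4566 and 4693 in the control libraries. It was 1 of 7 members on opposite sides of the control, with the peroxiredoxin genes AHP1 and TSA2, GRX1, GPX1, SOD1 and TRR2, all above it in the ramp and below it in the shock. The monothiol glutaredoxin genes GRX3 (−0.88) and GRX4 (−1.20), which serve iron sensing, were lower after the ramp on the log2 scale.

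Storage carbohydrate genes were higher after the ramp almost without exception. All 7 trehalose genes were called higher (median 3.03), the degrading enzymes as well as the synthases. TPS1, which makes trehalose 6-phosphate, had 82555, 61586 and 75844 normalized counts in the heat ramp libraries, against 7117, 5725 and 5508 in the heat shock libraries and 9176, 6687 and 6384 in the control libraries. NTH1, the neutral trehalase that breaks trehalose down, had 33099, 29608 and 29520 normalized counts in the heat ramp libraries, against 9376, 9295 and 9210 in the heat shock libraries and 13488, 12137 and 12269.5 in the control libraries, and it stood on opposite sides of the control, as did NTH2 and ATH1. Of 11 glycogen genes, 10 were higher and 1 lower (median 2.10), 6 of them above the control in the ramp and below it in the shock. GPH1, glycogen phosphorylase, had 69534, 56051 and 70334 normalized counts after the heat ramp, against 6314, 6941 and 5995 after the heat shock, and the synthase gene GSY2 57526, 45951 and 59276 normalized counts after the heat ramp, against 9802, 8238 and 8662 after the heat shock.

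Every glycolytic gene on the list, 17 of 17, was higher after the ramp (median 3.59), the highest median of the 43 lists, and 9 of the 17 lay above the control in the ramp and below it in the shock. PGK1, phosphoglycerate kinase, had 322808, 273180 and 458367 normalized counts in the heat ramp libraries, against 11007, 11175 and 10118 in the heat shock libraries and 19599, 19555 and 19479.6 in the control libraries, with a log2 difference between ramp and shock of 5.0 (standard error 0.19, adjusted p = 8.25e-11). HXK1, the hexokinase of glucose-poor cells, had 122805, 132837 and 142948 normalized counts in the heat ramp libraries, against 8004, 7179.6 and 5769.6 in the heat shock libraries and 11531, 9689 and 7715 in the control libraries. These genes held 8.54% ± 1.75 of the reads after the heat ramp, 1.22% ± 0.0934 after the heat shock and 1.92% ± 0.0396 in the control (SD, n = 3 each). Reads of ENO1 and ENO2, and of TDH1, TDH2 and TDH3, can be shared between the copies. These have 15.7% to 31.3% of their windows in common with other places. Every copy was called in the same direction, but copies that share reads are not independent of each other.

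Glucose uptake genes joined them only in part. The hexose transporter list had 8 of 11 higher and 2 lower (median 1.28, or 0.55 with 5 higher and 2 lower by total count scaling). HXT6 and HXT7, the high-affinity carriers of derepressed cells, are 95.1% alike by windows and count as 1 signal, for which HXT7 had 258458, 312184 and 222871 normalized counts after the heat ramp, against 14915, 17836 and 17998 after the heat shock. HXT2 fell in both treatments relative to the control and lower in the ramp, with 1535, 1579 and 2585 normalized counts in the heat ramp libraries, against 12422, 18951 and 18478 in the heat shock libraries and 26343, 34134 and 33580.3 in the control libraries. Downstream of pyruvate, 8 of 13 fermentation and acetate genes were higher and 3 lower (median 0.99, or 0.25 with 6 higher and 5 lower by total count scaling). Within this list the aldehyde dehydrogenases parted by kind, with the stress-induced ALD3 at 4.36 and the acetate-forming ALD6 at −4.76 and mitochondrial ALD5 at −3.89 on the log2 scale, ramp minus shock.

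The reverse pathway went down. Of 12 gluconeogenesis and glyoxylate cycle genes, 8 were lower and 2 higher (median −1.64). PCK1 had 1490, 1455 and 1910.4 normalized counts in the heat ramp libraries, against 38774, 41768 and 38898 in the heat shock libraries and 31488, 38949 and 30816 in the control libraries. The shock overlapped with the control and only the ramp was low. ICL1, isocitrate lyase, had 460.3, 572 and 564 normalized counts in the heat ramp libraries, against 2093, 3064 and 2761 in the heat shock libraries and 5149, 8822 and 7535 in the control libraries, and there both treatments were below the control. The exceptions were CAT8, the activator of the pathway (2.30), and the acetyl-CoA synthetase gene ACS1 (1.71), which were above the control in the ramp and below it in the shock.

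Mitochondrial energy genes did not rise as a block. The citrate cycle had 7 of 17 genes higher and 4 lower (median 0.19, or −0.56 with 5 higher and 10 lower by total count scaling), with the citrate synthase gene CIT1 the highest at 2.37. The respiratory chain and ATP synthase list had 22 of 37 genes lower and 5 higher (median −0.59, or −1.33 with 4 higher and 33 lower by total count scaling). Among the subunits, ATP20 had 431, 291 and 416 normalized counts after the heat ramp, against 1402, 1916 and 923 after the heat shock, whose groups did not overlap. CYC7, the minor isoform of cytochrome c, was the exception in size, with 17169, 17512 and 13466 normalized counts in the heat ramp libraries, against 1061, 997 and 789 in the heat shock libraries and 2051, 1959 and 1811 in the control libraries. It lay on opposite sides of the control, together with COX5B, NDI1 and NDE2. In the pentose phosphate pathway 6 of 11 were higher and 2 lower (median 0.89, or 0.15 with 5 higher and 5 lower by total count scaling), with the minor isoforms SOL4 (3.48), TKL2 (3.45) and GND2 (2.96) at the top and RKI1 at the bottom.

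Genes of the ribosome and of translation were lower after the ramp almost throughout. In 6 lists of cytosolic ribosomal proteins, ribosome assembly factors, RNA polymerases I and III and translation factors, 250 of 267 genes were lower and 5 higher (median −1.77). The genes together held 3.00% to 3.56% of the reads after the heat ramp, 12.7% to 15.2% after the heat shock and 11.1% to 12.0% in the control. Of the 73 ribosome assembly genes, all 73 were lower (median −2.43). HAS1, a helicase that acts on both ribosomal subunits and whose promoter is shown above, had 711, 1152 and 1198 normalized counts in the heat ramp libraries, against 14448, 16436 and 15554 in the heat shock libraries and 12449.5, 12257 and 14223 in the control libraries. The ramp values lie far below all others, and the shock was not called apart from the control. ARX1, an export factor of the large subunit, differed by −3.60.

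RNA polymerase I, which transcribes the large ribosomal RNA, had 9 of 10 subunit genes lower (median −2.79), and polymerase III 10 of 11 (median −1.35), with none higher in either. RPA12 had 108, 146 and 99.9 normalized counts in the heat ramp libraries, against 2613, 3199 and 2344 in the heat shock libraries and 1255, 1410.2 and 1558 in the control libraries, or −3.58 and 0.94 on the log2 scale relative to the control. Of the ribosomal protein genes, 54 of 56 for the small subunit were lower and 2 higher (median −1.60), and 74 of 81 for the large subunit were lower and none higher (median −1.54). RPL13A had 1311, 1661 and 1484 normalized counts after the heat ramp, against 8374, 12580.2 and 9170.5 after the heat shock. The 2 higher genes, RPS14B (0.54) and RPS22B (0.71), passed the threshold with the deposited size factors but were −0.21 and −0.034 with total count scaling. Translation factor genes were lower in 30 of 36 and higher in 3 (median −1.52), among them NIP1, a subunit of the initiation factor eIF3 (−2.57), and the release factor gene SUP45 (−2.39). Mitochondrial ribosomal protein genes, which belong to another regulon, were higher in 14 of 67 and lower in 21 (median −0.03, or −0.77 with 2 higher and 54 lower by total count scaling).

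Biosynthesis and nutrient uptake were lower after the ramp in most lists. Arginine genes were lower in 8 of 9, with ARG1 at 639.7, 679.7 and 778 normalized counts after the heat ramp, against 5306, 5825 and 4479.7 after the heat shock, and purine genes in 7 of 10, with 1 higher gene in each list. Sulfate assimilation and methionine genes were lower in 9 of 18 and higher in 2 (15 lower and none higher by total count scaling), and MET17, the homocysteine synthase, had 1789.6, 1666 and 1842 normalized counts in the heat ramp libraries, against 15598, 15903 and 15654 in the heat shock libraries and 11602, 6534 and 8861 in the control libraries. Here the shock was above the control and the ramp below it. Iron uptake genes were lower in 14 of 21 and higher in 2 (median −1.12). ARN1, a siderophore carrier, had 1691, 1596 and 1752 normalized counts in the heat ramp libraries, against 27153, 28908 and 33355 in the heat shock libraries and 19127, 12952 and 18139.9 in the control libraries, and so stood on opposite sides of the control, like SIT1 and FIT2.

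Lipid genes gave a finer pattern. In the ergosterol pathway 14 of 23 genes were lower and 7 higher (median −0.59, or −1.33 with none higher and 17 lower by total count scaling), within a range from −1.83 for ERG13 to 0.93 for ERG28. ERG5 was above the control in both treatments, with 7105, 5611 and 8149.7 normalized counts in the heat ramp libraries, against 3654, 4227 and 4015 in the heat shock libraries and 1354, 1829 and 1786 in the control libraries. Fatty acid synthesis genes were lower in 8 of 10 with none higher, but in only 5 without heat shock replicate 2 or without heat ramp replicate 2. OLE1, the only fatty acid desaturase of this yeast, had 3138, 4954 and 3492 normalized counts in the heat ramp libraries, against 63435, 66021 and 60359.7 in the heat shock libraries and 63965, 39487 and 50095 in the control libraries. ELO3, an elongase of very long chains, had 2662, 2493 and 3005 normalized counts in the heat ramp libraries, against 6838, 8459 and 8888 in the heat shock libraries and 2569, 2514 and 2964 in the control libraries. In this case the ramp overlapped with the control and the shock was above both.

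Among the other lists, cell wall genes were higher in 12 of 19 and lower in 1 (median 1.05, or 0.30 with 8 higher and 7 lower by total count scaling), led by the mannoprotein gene TIR1 (4.11) and by HSP150 (2.64), and without heat shock replicate 2 the median was 0.70. Glycerol genes were higher in 5 of 11 and lower in 3 (median 0.25, or −0.50 with 4 higher and 6 lower by total count scaling), with the dihydroxyacetone kinase gene DAK2 at 3.46 and the glycerol importer gene STL1 at −4.05. Of the 13 genes for fatty acid oxidation, 5 were higher and 1 lower (median 0.16, or −0.58 with 3 higher and 7 lower by total count scaling), the acyl-CoA oxidase gene POX1 being the highest (2.12). Histone genes were higher in 5 of 10 and lower in 2 (median 0.26, or −0.48 with 1 higher and 5 lower by total count scaling). Cell cycle genes were lower in 6 of 14 and higher in 3 (median −0.04, or −0.78 with none higher and 10 lower by total count scaling). FAR1, an inhibitor of the cyclin-dependent kinase, had 369.8, 371 and 493 normalized counts after the heat ramp, against 4031, 4441 and 4193 after the heat shock. The mitotic cyclin gene CLB1 had 139, 149 and 95 normalized counts after the heat ramp, against 932, 1216 and 826 after the heat shock. Without heat ramp replicate 2, 5 cell cycle genes were higher. The α-cell list had 2 higher and 2 lower, and 5 of 6 a-cell genes were lower.

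Of the 10 stress regulators, 5 were higher after the ramp and 3 lower (median 0.39, or −0.36 with 4 higher and 5 lower by total count scaling). HSF1 had 2066, 1929.8 and 1709 normalized counts in the heat ramp libraries, against 1261, 1136 and 1267 in the heat shock libraries and 2744, 2442 and 2368 in the control libraries. Its messenger was below the control in the shock, and the ramp lay between the other groups, with a log2 difference from the shock of 0.64 (standard error 0.12), which became −0.11 with total count scaling. MSN4 had 3676, 3072 and 3713 normalized counts in the heat ramp libraries, against 2965, 3245 and 3289 in the heat shock libraries and 8739, 10160 and 8421 in the control libraries, lower than the control in both treatments and not called between them (0.14, limma adjusted p = 0.341), although it was called lower after the ramp with total count scaling (−0.61, limma adjusted p = 0.00045). MSN2 was slightly lower after the ramp (−0.55, adjusted p = 0.0018), as were SKN7 (−0.47) and CIN5 (−0.81), and YAP1 was not called (−0.37, adjusted p = 0.0554).

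Other regulators were higher after the ramp. XBP1, a repressor made in starvation and stress, had 6640.4, 2433 and 6521 normalized counts in the heat ramp libraries, against 1294, 814 and 1387 in the heat shock libraries and 2093, 1831 and 1816 in the control libraries, with the second ramp library well under the other ramp libraries. RIM15, the kinase that leads cells into quiescence, had 5665, 3854 and 5100.5 normalized counts after the heat ramp, against 1962, 1813 and 1965 after the heat shock, and its target GIS1 8162, 4719 and 7079.8 normalized counts after the heat ramp, against 2332, 2167 and 2116 after the heat shock. GIS1 lay on opposite sides of the control. RPN4, the activator of proteasome genes, had 34519, 37691 and 34935 normalized counts in the heat ramp libraries, against 17210.2, 10414 and 15776 in the heat shock libraries and 7216, 7883 and 6821 in the control libraries, so that both treatments exceeded the control and the ramp exceeded the shock. Of the 33 proteasome promoters, 27 hold the Rpn4 element GGTGGCAAA within 500 bases upstream, against 1.66% of all promoters.

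Among 46 pairs of paralogous genes, 27 had both members called in the same direction, 12 had 1 or no call, and 7 were split, with one member higher and the other lower after the ramp. For the translation factor eIF5A, ANB1, the copy known from growth without oxygen, had 1554, 1216 and 2305 normalized counts after the heat ramp, against 233, 234 and 226 after the heat shock, whereas HYP2, its aerobic counterpart, had 17729, 12599 and 19212 normalized counts after the heat ramp, against 46671, 51520.2 and 45369 after the heat shock. Relative to the control, HYP2 was higher in the shock (1.43 on the log2 scale) and not called in the ramp (−0.13). ANB1 was higher than the control in the ramp (2.98) and not called in the shock (0.17). The cytochrome oxidase subunits were split too, with 1.65 for COX5B, known from low oxygen, and −1.35 for COX5A, ramp minus shock. Unlike HYP2, COX5A was below the control in the ramp (−1.14) and not called in the shock (0.21). Among the other split pairs were the transketolases TKL2 (3.45) and TKL1 (−0.66), the glycogenins GLG1 (2.10) and GLG2 (−0.97), the ubiquitin-conjugating enzymes UBC4 (1.45) and UBC5 (−1.28), and the scaffold proteins of translation initiation TIF4632 (0.61) and TIF4631 (−2.26). With total count scaling TIF4632 was at −0.14, and 5 of the 7 pairs were split as before.

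In 898 features the treatments lay on opposite sides of the control, each difference from it and the difference between treatments being called. The ramp was above and the shock below in 450 (6.57% of the features tested), and the reverse held in 448 (6.54%). With total count scaling the first count was 186 and the reverse 527. These counts describe comparisons that share the control libraries, so a deviation of the control moves both. Most of the movements were modest. Both treatments were at least 1 from the control on the log2 scale in 37 and 23 features. Among protein-coding genes the medians were 0.91 in the ramp and −0.66 in the shock for the 445 of the first kind, and −1.0 and 0.57 for the 439 of the second kind. Of the 448 features that fell in the ramp and rose in the shock, 114 belonged to the 6 lists of ribosome and translation genes, 80 of them cytosolic ribosomal proteins, against 1 of the 450 of the first kind. These lists hold 267 (3.90%) of the features tested, so that their shares were 25.4% in the second kind and 0.222% in the first.

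Of the first kind, CIP1, an inhibitor of the G1 form of the cyclin-dependent kinase, had 29456, 13766 and 22491 normalized counts in the heat ramp libraries, against 1166, 530.2 and 908 in the heat shock libraries and 5438, 2518 and 2599.6 in the control libraries. No value of one group reached another, although the replicates of each were spread. SPG1, a gene known to be needed for survival of heat in stationary phase, had 2156, 2251 and 1896 normalized counts in the heat ramp libraries, against 114, 114 and 126 in the heat shock libraries and 369, 508 and 489 in the control libraries. Its replicates lay close together, and the control stood between the treatments. The uncharacterized TDA6 had 12549, 9621 and 13314 normalized counts in the heat ramp libraries, against 1036, 664 and 1327 in the heat shock libraries and 5011, 3699.9 and 3985 in the control libraries, and MHP1, a microtubule-associated protein, had 11009, 8064 and 10888 normalized counts in the heat ramp libraries, against 1092, 939.9 and 1079 in the heat shock libraries and 4384, 3343 and 3262 in the control libraries. STF2, EGO4, the eisosome-associated FMP45 and the enolase gene ENO1 completed the 8 genes of this kind that ranked first by the smaller of the pair of differences from the control.

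Of the second kind, NCE103, described above, was the farthest, with log2 differences from the control of −3.22 in the ramp and 2.07 in the shock. DSE2, a daughter-cell protein that helps to separate mother and daughter, had 3426, 2758 and 2984 normalized counts in the heat ramp libraries, against 28868, 35853 and 39785 in the heat shock libraries and 11880.2, 7786 and 9970.2 in the control libraries. Its shock libraries were all over the control and its ramp libraries all under it. RPS22A, a protein of the small ribosomal subunit, had 3492, 3234 and 3008 normalized counts in the heat ramp libraries, against 16844, 25703 and 24041 in the heat shock libraries and 7769.7, 8806 and 9808 in the control libraries, and ADE17, which catalyses the last steps of purine synthesis, had 821, 893 and 779.9 normalized counts in the heat ramp libraries, against 7287, 9527 and 8254 in the heat shock libraries and 3900.4, 2629 and 3868 in the control libraries. APT1, which salvages adenine, differed from the control by −1.69 in the ramp and 1.30 in the shock. The remaining 3 were the uncharacterized membrane protein gene YML018C, the cysteine transporter gene YCT1, and MFA2, an a-factor gene of low level in this α strain.

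**Figure D4:**
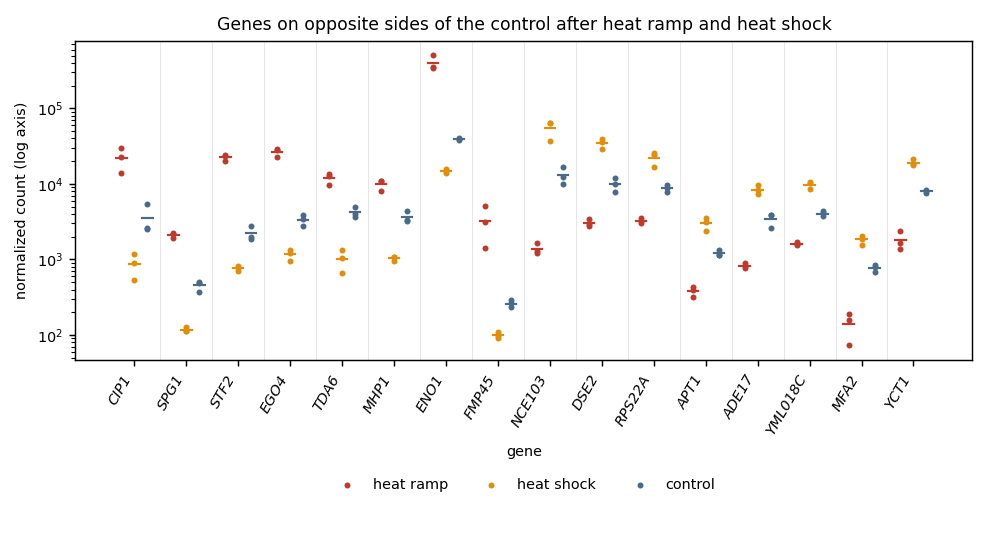
Normalized counts (log axis) of 16 genes on opposite sides of the control, the first 8 up in the heat ramp and down in the heat shock and the last 8 the reverse, with 1 point for each of the 3 libraries of a group and a bar at the mean. In all 16 genes, which were picked for lying on opposite sides of the control, the control points lie between those of the treatments.

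Promoters were described by the elements in the 500 bases upstream of each reading frame, which could be read for 5911 of the 5912 protein-coding genes tested. A match is a description of letters and not proof of a site. An STRE stood in 34.2% of all these promoters, in 44.9% of those of the 2098 genes higher after the ramp and in 25.4% of those of the 2348 lower genes. It stood in 51.9% of the genes that were up in the ramp and down in the shock, and in 25.5% of the reverse kind. The difference between ramp and shock widened with the number of copies, from a median of −0.20 with none (3887 genes) through 0.15 with 1 (1538) and 0.62 with 2 (376) to 1.62 with 3 or more (110). In the last class 70.9% of the genes were higher after the ramp. The same class had a median of 1.26 in the ramp and −0.25 in the shock relative to the control. In the general stress list 16 of 18 promoters held an STRE, in the trehalose list 6 of 7 and in the glycogen list 9 of 11.

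A heat shock element of the strict form used here stood in 1.51% of all promoters, 89 genes, with 53 higher and 20 lower in the ramp than in the shock (median 0.98). The elements of ribosome assembly genes marked the other end. PAC stood in 68 and RRPE in 59 of the 73 promoters of that list, against 28.1% and 12.6% of all promoters. Both together stood in 359 promoters, where 289 genes were lower and 38 higher after the ramp (median −1.70). Of these, 276 genes belonged to none of the 6 ribosome and translation lists, and 207 of them were lower (median −1.42). The Rap1 element in the form ACCCATAC stood in 26 of 137 ribosomal protein promoters and in 1.91% of all, and the Gcn4 element TGACTCA in 7 of 9 arginine promoters and in 4.04% of all.

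**Figure D5:**
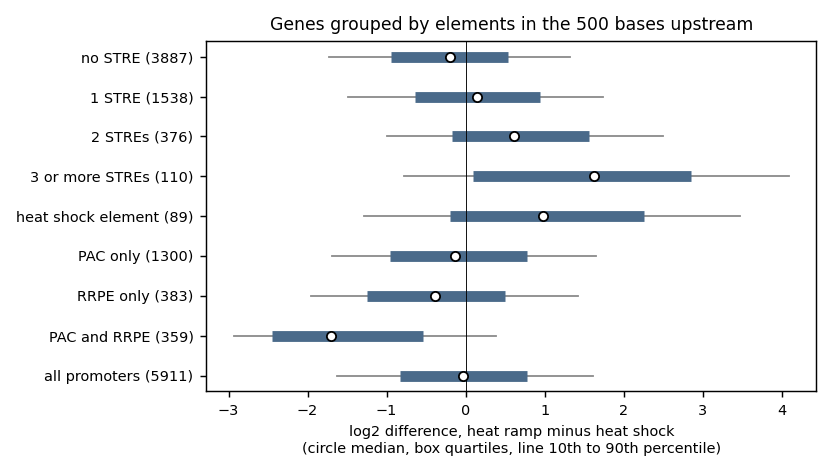
Log2 difference between heat ramp and heat shock (x axis) for genes grouped by elements in the 500 bases upstream, with the number of genes in brackets, the circle at the median, the box over the quartiles and the line from the 10th to the 90th percentile. The median moves from −0.20 without an STRE to 1.62 with 3 or more, and lies at −1.70 for genes with both PAC and RRPE.

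With the deposited size factors, features other than messenger RNA were mostly higher after the ramp where they were called. These libraries were selected for poly(A) tails, which most such RNAs do not carry, so their counts describe what passed that selection. Small nucleolar RNAs, which guide the modification of ribosomal RNA, were higher in 57 of 76 and lower in 3 (median 1.84). By total count scaling 48 were higher and 9 lower (median 1.11). They held 0.262% to 0.294% of the reads after the heat ramp, 0.111% to 0.128% after the heat shock and 0.0496% to 0.0533% in the control. The messengers of the ribosome assembly genes were lower, as given above. Of the 5 small nuclear RNAs tested, 4 were higher and none lower. Transfer RNA genes were higher in 57 of 217 and lower in 2 (median 0.56), but with total count scaling 18 were higher and 38 lower (median −0.17). Open reading frames outside the protein-coding annotation were higher in 219 of 597 and lower in 116 (median 0.33). Total count scaling turned these to 94 higher and 233 lower (median −0.40).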

How the data were processed

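Total RNA from 3 cultures, each of which gave a sample to every group, was selected for poly(A) tails by the study and sequenced. For the RNA integrity number the study gives only an upper bound shared by all samples. Integrity therefore cannot be compared between the groups, and its part in any result was not tested. According to the study's methods, the authors trimmed reads with Trimmomatic, aligned them with Bowtie2 to the SacCer3 genome and normalized with DESeq2. The deposited values are a normalized signal, read counts divided by a size factor for each library, for 7126 features. The counter, annotation and strand setting are not given in the sources used here, so overlapping and antisense genes cannot be told apart. Whole reads were recovered for 100% of the values in every library (tolerance 0.01 reads), which gave 22579312 to 27233289 reads per library. Columns of the authors' own comparisons (fold changes and p-values) were not used.

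Features with a mean of at least 10 normalized counts over the 9 libraries (6847) were fitted with limma 3.58.1 (R 4.3.3, trended prior) on log2(normalized count + 1), with group as the only term, with 2-sided tests and the Benjamini-Hochberg adjustment taken over every feature fitted. Fold changes on this scale are understated for low features. A feature in opposite directions had all 3 differences called and opposite signs relative to the control. edgeR 4.0.16 and DESeq2 1.42.0 on the recovered reads, TMM and total count scaling, other filters and pseudocounts, and leaving out each library were tried as alternatives, and the fits were tested on simulated data.

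Named genes were the 10 highest and 10 lowest protein-coding genes with non-overlapping groups and a mean of at least 100 normalized counts in the higher group, the 8 in each opposite direction with the largest smaller difference from the control, up to 2 called at each end of each list, split paralog pairs and all listed stress regulators. Other list members described, and the promoters of HSP104 and HAS1, were chosen after their values were seen. The members and lists were chosen with earlier results of these data known. Lists were described by counts and medians without a test. The supplement states that each culture gave a sample to every group, and equal replicate numbers were taken to mean the same culture. The sample labels give only the replicate number. The main fit left this pairing out, and a fit with the culture as a block is given below. For the 3 replicate numbers, deviations from the group means correlated between ramp and shock at −0.05, −0.05 and 0.01. The correlations were 0.03, −0.20 and −0.01 between ramp and control, and 0.29, 0.04 and 0.05 between shock and control. 1 gene that the rule names is not reported here.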

Additional observations from a re-analysis of the deposited data

How the results depend on the processing

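Over 21 alternatives, the number of features called between heat ramp and heat shock stayed within 1.5 times of 4929 except with a required log2 difference of at least 1, which left 2777 (1470 higher, 1307 lower) and 60 features in opposite directions (37 up in the ramp and down in the shock, 23 the reverse). Scaling to the total count gave 1184 higher and 4096 lower features. It left 186 up in the ramp and down in the shock, and 527 the reverse. In that scaling the difference between ramp and shock turned negative for 10 of the 175 named genes. These were ACO1 (−0.073), CDC28 (−0.056), FRE3 (−0.20), HSF1 (−0.11), MET13 (−0.23), MSN4 (−0.61), PRE2 (−0.19), RPS14B (−0.21), RPS22B (−0.034) and TIF4632 (−0.14). By construction total count scaling lowers every difference by nearly the same amount. Of 3674 values for 175 named genes under the alternatives, 3608 kept their direction and their side of the threshold. edgeR called 4937 and DESeq2 4930 features. A fit of the 6 heated libraries alone gives no opposite directions, for want of a control, and called 4687. With the culture as a replicate block, 4917 features were called (2451 higher, 2466 lower) and 907 lay in opposite directions. Leaving out 1 library gave 4607 to 5041 called features (2287 to 2498 higher, 2298 to 2543 lower) and 669 to 1015 in opposite directions (358 to 496 and 311 to 519), the low end without control replicate 2. Differences of features near the filter of 10 normalized counts are the least precise.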

Other observations

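Genes near chromosome ends were also counted, from the calls made with the deposited size factors. Of the 2098 protein-coding genes higher after the heat ramp, 150 (7.15%) lay within 20 kb of an end, against 31 (1.32%) of the 2348 lower genes and 3.89% of all 5912 protein-coding genes tested. Among the genes in opposite directions the shares were 7.19% of the 445 that were up in the ramp and down in the shock, and 0.911% of the 439 of the reverse kind, which amounts to 32 and 4 genes. The median length was 1770 bases in the first kind and 1044 bases in the second. Over all these genes the rank correlation of the log2 difference with length was 0.03 and with GC content 0.10, both across genes of the same libraries and given without a test.

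Open reading frames of the mitochondrial genome were higher after the heat ramp in 9 of 18 and lower in 1, with a median of 0.78, or 0.04 with total count scaling. Their medians relative to the control were 3.12 in the ramp and 2.19 in the shock. They held 0.0196% to 0.0320% of the reads after the heat ramp, 0.0193% to 0.0252% after the heat shock and 0.00541% to 0.00872% in the control. These counts, too, describe what passed the selection for poly(A) tails.

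The metallothionein gene CUP1, whose copies CUP1-1 and CUP1-2 are identical over 100% of their windows, varied between the heat shock replicates. CUP1-1 took 0.454% to 1.88% and CUP1-2 0.446% to 1.92% of the reads of a heat shock library.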
